A study of Mus musculus with 4 samples.

Results

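The Ms4a family was examined in RNA-seq of the mouse lumbar spinal cord. The members were Ms4a4a, Ms4a4c, Ms4a6b, Ms4a6c, Ms4a6d and Ms4a7, and they were chosen by gene name in the deposited expression table, with the mean taken over the rows of a name. Of the 6 names, 5 were matched by 7 rows, in a table of 18674 gene names and 23750 rows. The expression of Ms4a4a was not analysed here. RNA came from wild type (WT) mice and from G93A mice, a high-expresser strain called H1, which carry a mutant human SOD1 transgene and are used as a model of amyotrophic lateral sclerosis (ALS). According to the methods, the strain is kept on a B6/SJLF1 background and male mice were used for treatment. Mice of each genotype received either spermidine (SD), a natural polyamine, or PBS as vehicle, 4 times a week over 30 days according to the labels, and the lumbar cord was taken at 100 days of age. This gave 4 conditions, named WT vehicle, G93A vehicle, WT + SD and G93A + SD, with 1 library each. The number of animals behind a library is not given in the sources used here, so that no difference has a replicate check and no p-value is given. The transgene is driven by the human SOD1 promoter and is active in all tissues, not in motor neurons alone.

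MS4A proteins are small proteins that cross the cell membrane several times and have both ends inside the cell. The best known are Ms4a1, which encodes CD20 on B cells, and Ms4a2, which encodes the beta chain of the high-affinity IgE receptor on mast cells. The members described here are mostly found on macrophages, monocytes and microglia. In humans, variants near MS4A4A and MS4A6A are linked to the risk of Alzheimer's disease and to the level of soluble TREM2 in spinal fluid, and MS4A4A binds the fungal receptor Dectin-1 (Clec7a) on macrophages.

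The members lie in 1 cluster on mouse chromosome 19. In the RefSeq annotation of GRCm38.p6 the cluster runs over 679 kb at chr19:10962289-11640851 and holds 22 annotated family genes, of which 12 had a row in the expression table. In the GENCODE M21 annotation of the same build, Ms4a7 lies at chr19:11321039-11336146 on the minus strand, Ms4a4c at chr19:11404770-11427246 on the plus strand, Ms4a6c at chr19:11469366-11482192 on the plus strand, Ms4a6b at chr19:11516512-11531256 on the plus strand and Ms4a6d at chr19:11586604-11604849 on the minus strand. Each is a protein-coding gene, and the transcript used here has 7 exons in each.

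The members are copies of one another to different degrees, which decides how far short reads can separate them. Over the aligned coding sequence, Ms4a6b was 85.8% identical to Ms4a6c and 81.2% identical to Ms4a6d, and Ms4a6c was 77.4% identical to Ms4a6d. Ms4a4c was closest to genes that are not members, at 91.7% identity with Ms4a4b and 86.1% with Ms4a4d. Its identity with Gm8369 was 91.1%, but over only 369 aligned bases. Ms4a7 stood apart, with 60.3% identity to Ms4a6b as its highest value among the members. The longest coding stretch that Ms4a6b and Ms4a6d share without a difference was 81 bases, at coding bases 100 to 180. It is shown with the same positions of Ms4a6c, where the 4 bases that differ from Ms4a6b are in capitals.
Ms4a6b: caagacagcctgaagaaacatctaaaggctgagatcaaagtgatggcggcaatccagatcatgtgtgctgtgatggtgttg
Ms4a6d: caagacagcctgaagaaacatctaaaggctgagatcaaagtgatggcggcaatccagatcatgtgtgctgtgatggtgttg
Ms4a6c: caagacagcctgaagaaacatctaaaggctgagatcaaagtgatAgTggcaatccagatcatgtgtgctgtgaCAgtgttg
A stretch of 127 coding bases, at coding bases 321 to 447, was the same in Ms4a4c and Ms4a4b. It is shown because a whole read can fall inside it.
Ms4a4c: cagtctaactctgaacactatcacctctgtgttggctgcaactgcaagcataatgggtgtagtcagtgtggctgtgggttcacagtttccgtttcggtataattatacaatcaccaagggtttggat
Ms4a4b: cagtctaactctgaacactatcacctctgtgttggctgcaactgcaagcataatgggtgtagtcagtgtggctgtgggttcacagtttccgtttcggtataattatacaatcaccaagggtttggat
The reads were 53 bases long according to the methods. Of all 53-base windows of the transcript, 10.01% in Ms4a6c, 7.65% in Ms4a6b, 7.60% in Ms4a4c and 2.49% in Ms4a6d also occurred in a transcript of another gene. For Ms4a6b these were Ms4a6c, Ms4a6d and the pseudogene Gm10212. In Ms4a7 the share was 0, so the reads of this gene have no such copy. Longer windows of 108 bases were shared in 1.24% of positions in Ms4a4c in 0.115% in Ms4a6c and in 0 positions in Ms4a6b, Ms4a6d and Ms4a7. BE692007, a transcript on the opposite strand, overlaps exons of Ms4a6c, and since the sources used here do not state that strand was used in counting, reads of the 2 genes cannot be told apart.

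All 5 measured members were called higher in G93A than in WT, both with vehicle, where 20.3% of all 18674 gene names were, and with SD, where 23.2% were. The ratios ran from 4.04-fold for Ms4a6b with SD to 187-fold for Ms4a7 with vehicle. Levels are given as RPKM (reads scaled by transcript length and by library size), which allows genes to be compared. A name was called higher or lower where the 2 libraries differed at least 1.5-fold.

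The Ms4a6 genes form the largest group. Ms4a6d, a macrophage gene, was measured at 0.524 RPKM in WT vehicle, 0.578 RPKM in WT + SD, 6.68 RPKM in G93A vehicle and 9.25 RPKM in G93A + SD. It had the highest level of all members in both WT libraries, and the WT and G93A values did not overlap. This held for all 5 members, but also for 39.7% of all names, whose G93A values both lay above both WT values. The G93A value was 12.7-fold higher than the WT value with vehicle and 16.0-fold higher with SD. Ms4a6c was at 0.136 RPKM in WT vehicle, 0.0810 RPKM in WT + SD, 6.71 RPKM in G93A vehicle and 8.45 RPKM in G93A + SD. Its WT values lay in the middle of the 5 members in both libraries and well under those of Ms4a6d, while its G93A values were close to those of Ms4a6d. This made a difference of 49.2-fold with vehicle and 104-fold with SD. The 2 transcript rows of Ms4a6c ran in the same direction, with 7.70 RPKM and 5.71 RPKM in G93A vehicle against 0.197 RPKM and 0.0757 RPKM in WT vehicle. In G93A + SD they had 10.5 RPKM and 6.42 RPKM, on either side of Ms4a6d, so the order of these 2 genes there depends on the row. Ms4a6b, a related gene known from both lymphoid and myeloid cells, was lower in the G93A libraries than its 2 neighbours in sequence. Its level was 0.222 RPKM in WT vehicle, 0.383 RPKM in WT + SD, 1.40 RPKM in G93A vehicle and 1.55 RPKM in G93A + SD. The G93A level was 6.32-fold above WT with vehicle and 4.04-fold above with SD.

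Ms4a7, which marks macrophages at the borders of the brain and is low in resting microglia, had the largest difference with vehicle as reported, a rank that passed to Ms4a6c with a pseudocount of 1 RPKM and with WT + SD as the comparison library. Its level was 0.0303 RPKM in WT vehicle, 0.0705 RPKM in WT + SD, 5.67 RPKM in G93A vehicle and 7.52 RPKM in G93A + SD. The gene went from the edge of detection in both WT libraries to the range of Ms4a6c and Ms4a6d in both G93A libraries. The ratios were 187-fold with vehicle and 107-fold with SD, but the WT vehicle value stands on about 1.01 and 1.45 estimated read pairs in its 2 transcript rows, against 191 and 287 in G93A vehicle. These pair counts are estimates that would be 2 times as high if 108 aligned bases were a whole pair, so no counting interval was made, and the size of the ratio is poorly fixed. The 2 rows gave nearly the same levels, 5.70 RPKM and 5.65 RPKM in G93A vehicle.

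Ms4a4c, a gene of the Ms4a4 group that is also expressed in monocytes and T cells, was the lowest member in both G93A libraries. It was listed at 0 RPKM in WT vehicle and measured at 0.0745 RPKM in WT + SD, 0.381 RPKM in G93A vehicle and 0.650 RPKM in G93A + SD. The order of the 4 libraries was the same as for Ms4a6b, Ms4a6d and Ms4a7. No fold is given with vehicle because of the value of 0, and with SD the G93A value was 8.72-fold higher. About 4.91 estimated read pairs stood behind the WT + SD value and 24.9 behind the G93A vehicle value.

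**Figure D1:**
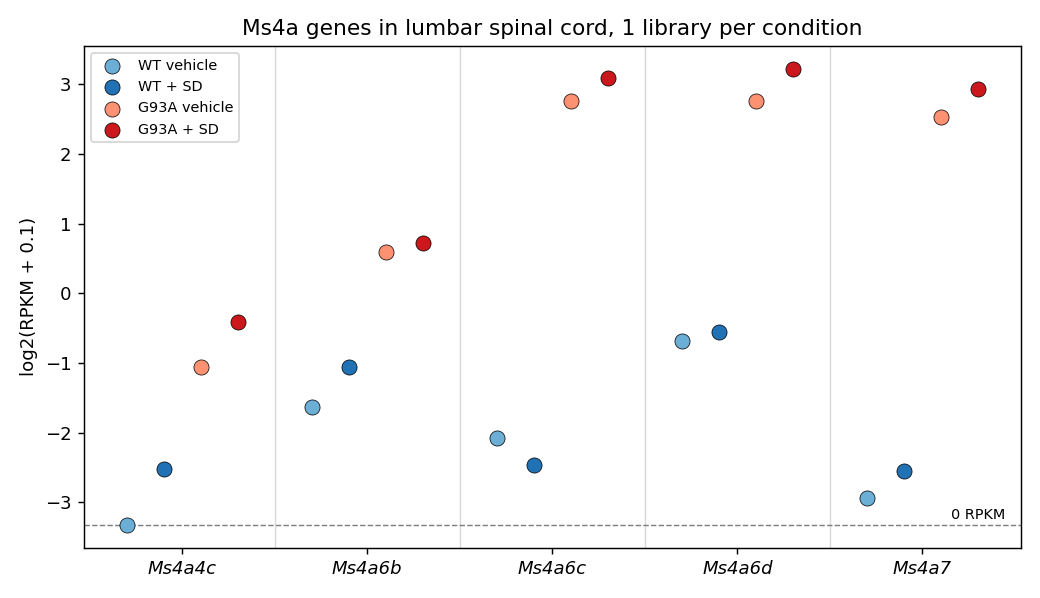
Level of the 5 measured Ms4a genes as log2(RPKM + 0.1), with 1 point per library and the dashed line at 0 RPKM. Both G93A points of every gene lie above both of its WT points, which also holds for 39.7% of all names. Ms4a6c, Ms4a6d and Ms4a7 reach between 5.67 and 9.25 RPKM in the G93A libraries.

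Of the 5 members, 0 were called lower in G93A, where 10.3% of all names were with vehicle and 12.5% with SD. With vehicle, 3 members with a value above 0 in WT differed more than 10-fold, and 4.33% of all names were called at that size, a count that includes names at 0 in WT such as Ms4a4c. With SD, 3 members differed more than 10-fold beside 5.15% of all names. The members with a mean of at least 1 RPKM were Ms4a6c, Ms4a6d and Ms4a7, and they pass this level through the G93A libraries, so their count is no support. Among all names with such a mean, 13.5% were higher with vehicle and 16.3% with SD. On the scale of log2(RPKM + 0.1), which keeps the low values from giving very large ratios, the differences with vehicle were 5.47 for Ms4a7, 4.85 for Ms4a6c, 3.44 for Ms4a6d, 2.26 for Ms4a4c and 2.22 for Ms4a6b. The median of the members was 3.44, and the median of all names was 0.05. Ranked among the 18674 names by this difference, Ms4a7 was number 11, Ms4a6c number 22, Ms4a6d number 82, Ms4a4c number 285 and Ms4a6b number 306. With SD the median of the members was 3.79, and Ms4a6c at rank 17 and Ms4a7 at rank 19 led the members. Whether more cells that express these genes or more RNA per cell gave the higher values cannot be told apart in bulk RNA.

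Summed over the members, the family went from 0.912 RPKM in WT vehicle and 1.19 RPKM in WT + SD to 20.8 RPKM in G93A vehicle and 27.4 RPKM in G93A + SD. The sum was 22.8-fold higher in G93A with vehicle and 23.1-fold higher with SD. The make-up of the family also differed between genotypes. In WT vehicle, Ms4a6d gave 57.4% of the sum, Ms4a6b 24.3%, Ms4a6c 15.0% and Ms4a7 3.32%. In WT + SD the shares were 48.7% for Ms4a6d, 32.3% for Ms4a6b, 6.83% for Ms4a6c, 6.28% for Ms4a4c and 5.94% for Ms4a7, so the shares of the low members moved by over 1.5-fold between the WT libraries. In G93A vehicle, Ms4a6c at 32.2%, Ms4a6d at 32.0% and Ms4a7 at 27.2% had close shares, while Ms4a6b held 6.73% and Ms4a4c 1.83%. The shares in G93A + SD were near those of G93A vehicle, with 33.7% for Ms4a6d, 30.8% for Ms4a6c and 27.4% for Ms4a7. No spread over replicates stands behind these orders, so neighbours with close levels, such as Ms4a6c at 6.71 RPKM and Ms4a6d at 6.68 RPKM in G93A vehicle, are not ranked.

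The members differed far less between SD and vehicle than between genotypes. In G93A mice, all 5 members were higher with SD than with vehicle by some amount, where 51.3% of all names were. The ratios were 1.71 for Ms4a4c, 1.38 for Ms4a6d, 1.32 for Ms4a7, 1.26 for Ms4a6c and 1.10 for Ms4a6b. Only Ms4a4c, at the low level given above, passed 1.5-fold, so 1 of 5 members was called higher and 0 lower, beside 8.71% and 7.31% of all names. The call of Ms4a4c was lost with a pseudocount of 1 RPKM and with a 2-fold threshold. The sum of the members was 1.32-fold higher. In WT mice, Ms4a4c, Ms4a6b and Ms4a7 were called higher with SD and Ms4a6c lower, beside 7.18% of all names higher and 8.55% lower. The ratios were 1.73 for Ms4a6b and 2.33 for Ms4a7, whereas Ms4a6c was 1.68-fold lower and Ms4a6d stayed within the threshold at 1.10. The WT values reached at most 0.578 RPKM, and those of Ms4a6c stand on about 13.4 and 8.99 estimated read pairs in the transcript row whose length is known, too few to fix its 1.68-fold ratio. Those of Ms4a6b stand on about 13.8 and 24.7, and its call was lost with a pseudocount of 1 RPKM. The 2.33-fold ratio of Ms4a7 stands on fewer still, 1.01 and 1.45 pairs in its rows with vehicle against 2.36 and 3.63 with SD, and its call was lost with a pseudocount of 0.1 RPKM. The comparison of SD with vehicle in G93A and that of G93A with WT under vehicle use the same G93A vehicle library, and their values are given side by side without being related to each other.

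**Figure D2:**
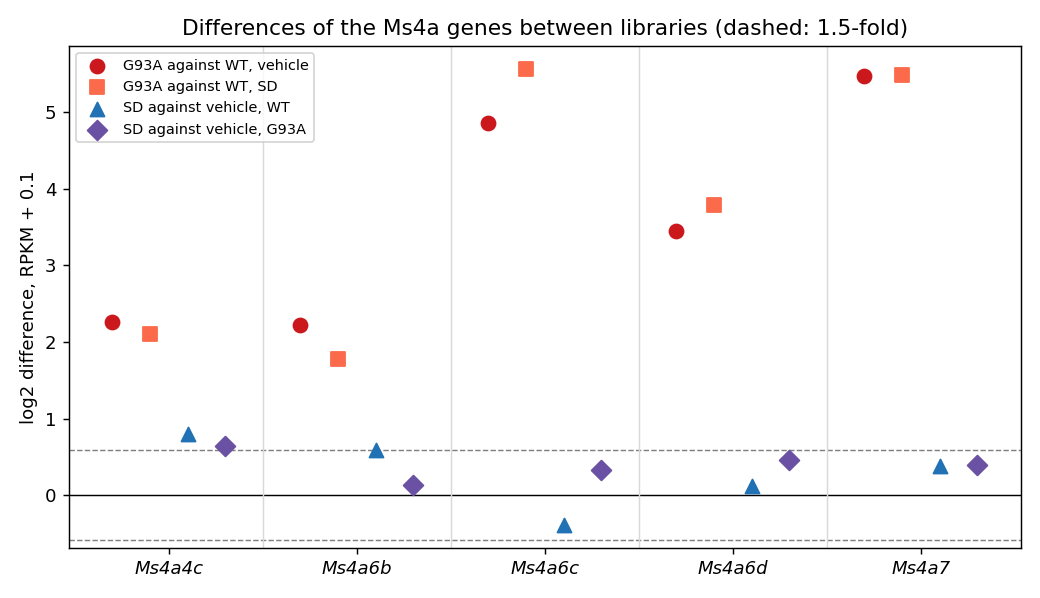
Difference of log2(RPKM + 0.1) for the 5 measured Ms4a genes in 4 comparisons of 2 libraries, with dashed lines at 1.5-fold. The genotype differences lie between 1.77 and 5.56 and the SD differences between -0.38 and 0.80. Calls were made without the added 0.1 RPKM, so Ms4a7 and Ms4a6c in WT lie inside the dashed lines although they were called.

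The other genes of the cluster did not all share this difference. Ms4a4b, known from T cells and the nearest relative of Ms4a4c, was listed at 0 RPKM in WT vehicle and had 0.0727 RPKM in WT + SD, 0.191 RPKM in G93A vehicle and 0.213 RPKM in G93A + SD. Ms4a4d had 0.138 RPKM in WT vehicle, 0.125 RPKM in WT + SD, 0.171 RPKM in G93A vehicle and 0.270 RPKM in G93A + SD. Its vehicle libraries differed 1.23-fold, which is within the threshold, and its SD libraries 2.16-fold. The cell type genes of the family were near 0 throughout. Ms4a1 (CD20) reached at most 0.0244 RPKM and Ms4a2 at most 0.0148 RPKM. Ms4a5, Ms4a8a and Gm8369 were each above 0 in 1 library only, with values of 0.0287, 0.0018 and 0.0175 RPKM.

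**Figure D3:**
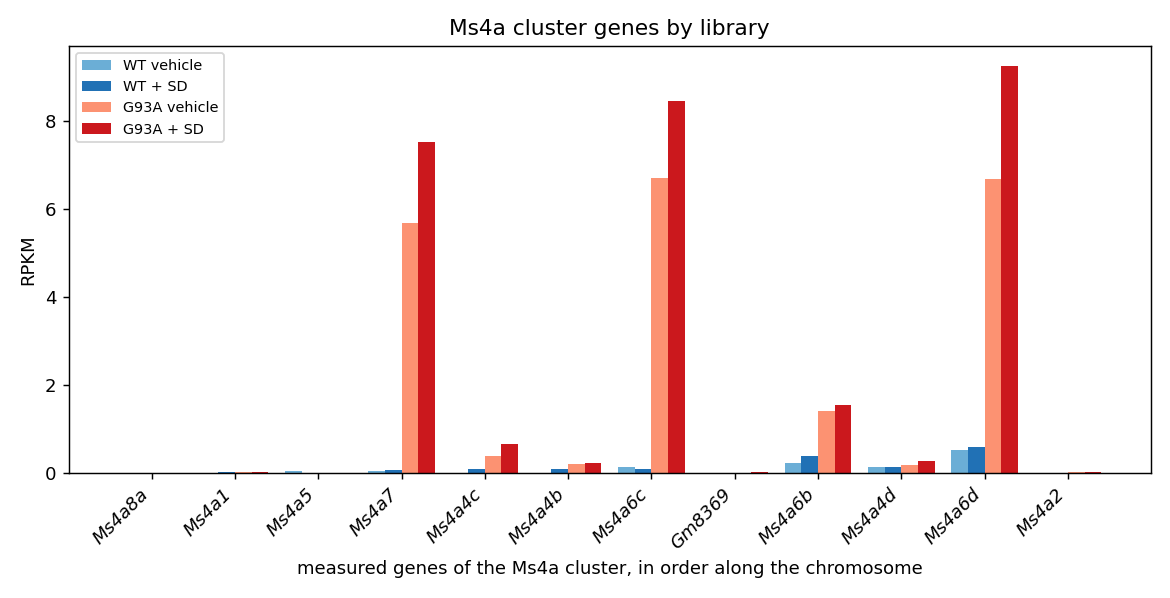
RPKM of the 12 measured genes of the Ms4a cluster in their order along the chromosome, with 1 bar per library. Ms4a7, Ms4a6c and Ms4a6d carry the high bars in G93A, up to 9.25 RPKM, while the genes between them reach at most 1.55 RPKM.

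Tmem176a and Tmem176b, a related pair of membrane protein genes outside the cluster, were far more abundant than any member. Tmem176a was at 11.2 and 10.4 RPKM in WT with vehicle and SD, and at 67.5 and 75.5 RPKM in G93A with vehicle and SD. It was 6.04-fold higher in G93A with vehicle and 7.23-fold with SD. Tmem176b had 21.1, 19.1, 88.5 and 100.6 RPKM in the same order, a difference of 4.19-fold with vehicle and 5.26-fold with SD. Both genes thus had higher WT levels and smaller ratios than Ms4a6c, Ms4a6d and Ms4a7.

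Genes beside the cluster were mixed. Within 250 kb on either side, 27 genes are annotated and 18 had a row, of which 7 were called higher and 1 lower in G93A with vehicle, and 6 higher and 2 lower with SD, where 20.3% and 23.2% of all names were higher. Of the 7, all but Slc15a3 reached at most 0.169 RPKM. The nearest on 1 side, Ccdc86, a nucleolar protein gene, had 2.11 RPKM in WT vehicle, 1.88 RPKM in WT + SD, 2.96 RPKM in G93A vehicle and 3.36 RPKM in G93A + SD. On the other side the egg protein genes Plac1l and Oosp1 were at or near 0, with no value above 0.0365 RPKM. Slc15a3, a peptide and histidine transporter gene of macrophages that is named here after its values were seen, had 0.882 RPKM in WT vehicle, 0.642 RPKM in WT + SD, 7.76 RPKM in G93A vehicle and 8.40 RPKM in G93A + SD. Its difference on the scale of log2(RPKM + 0.1) with SD was 3.52, near that of Ms4a6d at 3.79, and it was called higher with vehicle as well, so a difference of this size was not limited to the cluster.

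The promoters were searched because the members were higher together in G93A. RefSeq start sites on GRCm38.p6 gave the 250 bases before 6 starts of 5 members, Ms4a4a included and with 2 starts for Ms4a7. The letters GAGGAA, a core that the myeloid factor PU.1 binds, were found on either strand in 1 of the 6, against 23.3% of 32851 promoters of the same length. They are in capitals at position -61 before a RefSeq start of Ms4a4c on the plus strand, at chr19:11407411-11407660, a stretch that lies inside the annotated gene and not before its outer start.
Ms4a4c, before the inner start: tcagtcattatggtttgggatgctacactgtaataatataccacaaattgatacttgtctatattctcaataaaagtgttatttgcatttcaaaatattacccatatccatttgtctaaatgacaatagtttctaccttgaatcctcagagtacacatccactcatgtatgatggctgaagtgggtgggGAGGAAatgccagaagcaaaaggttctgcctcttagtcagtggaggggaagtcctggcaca
The letters TGANTCA, with any base at N, were searched as a loose form of the AP-1 site. They were found in 1 of the 6, against 6.75% of all promoters, and the match read TGATTCA. It lies at position -81 before the inner of the 2 starts of Ms4a7 on the minus strand, at chr19:11334696-11334945, where it is in capitals. The stretch before the outer start of Ms4a7 held none of the searched motifs.
Ms4a7, before the inner start: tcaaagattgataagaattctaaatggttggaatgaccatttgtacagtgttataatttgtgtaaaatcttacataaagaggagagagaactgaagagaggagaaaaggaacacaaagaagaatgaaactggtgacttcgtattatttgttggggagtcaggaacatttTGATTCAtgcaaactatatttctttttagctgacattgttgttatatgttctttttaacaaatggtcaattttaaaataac
The interferon response core, GAAA followed by any pair of bases and GAAA again, was searched as well and was in 0 of the 6, against 2.98% of all promoters. Every search covered both strands, and GAGGAA can share letters with the interferon core. These matches describe letters only, and no motif was found at more than 1 of the 6 starts, which belong to Ms4a4a, Ms4a4c, Ms4a6b, Ms4a6c and Ms4a7.

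RNA of myeloid receptor and signalling genes was higher in G93A as well. A list of 15 genes was set up with Trem2, its adaptor Tyrobp, Clec7a, Fc receptors, signalling partners and other myeloid genes linked to Alzheimer's disease. With vehicle, 15 of 15 were called higher, beside 20.3% of all names, with a median log2 difference of 2.02. With SD, 14 of 15 were, beside 23.2% of all names, with a median of 2.62. Trem2, a lipid receptor of microglia, was at 5.31 RPKM in WT vehicle, 5.50 RPKM in WT + SD, 65.1 RPKM in G93A vehicle and 43.9 RPKM in G93A + SD. Clec7a was at 0.325, 0.191, 35.3 and 30.6 RPKM in the same order. Tyrobp had 9.67, 7.76, 139 and 149 RPKM. Between SD and vehicle in G93A, 8 of the 15 genes were higher with SD by some amount, with a median of 0.04, and Trem2 and Clec7a were among those that were lower. In that comparison 1 of the 15 was called higher, the lipid carrier Apoe, and 2 were called lower, the Fc receptor chain Fcer1g and Vsig4. Of all names, 8.71% were called higher and 7.31% lower. Vsig4 was above 0 only in G93A vehicle, at 0.037 RPKM, so all of its calls rest on that low value. The gene of PU.1, listed under its older symbol Sfpi1, had 1.76, 1.19, 7.44 and 7.80 RPKM.

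Marker lists of cell types were set beside the members because the tissue holds many kinds of cell. Among genes of disease-associated microglia, 13 of 13 were higher in G93A with vehicle and with SD, with medians of 3.05 and 3.13. The median of the 5 Ms4a members was 3.44 and 3.79 in the same comparisons. The summed level of this list was 335 RPKM in WT vehicle, 338 RPKM in WT + SD, 2383 RPKM in G93A vehicle and 2484 RPKM in G93A + SD. Itgax, an integrin of this state, had 0.0925 RPKM in WT vehicle, 0.0924 RPKM in WT + SD, 13.2 RPKM in G93A vehicle and 15.5 RPKM in G93A + SD. Among homeostatic microglia genes, 10 of 12 were higher with vehicle, with a median of 0.97, and their sum was 166, 157, 530.1 and 623.9 RPKM in the same order. P2ry12, the purine receptor of resting microglia, was within the threshold at 15.9, 16.1, 16.7 and 19.6 RPKM, while Csf1r, the growth factor receptor of all macrophages, was at 22.4, 20.3, 74.9 and 74.9 RPKM.

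Border-associated macrophage genes are of interest here because Ms4a7 is 1 of the marks of these cells. With vehicle, 5 of 10 were higher in G93A, with a median of 0.29, and with SD 8 of 10, with a median of 0.99. Their summed level was 1.88 RPKM in WT vehicle, 1.36 RPKM in WT + SD, 4.29 RPKM in G93A vehicle and 6.25 RPKM in G93A + SD. With vehicle, the 5 genes called higher were Siglec1, a lectin that inflamed macrophages also make, Pf4, Folr2, Ccl24 and Clec10a, and Siglec1 went from 0.0347 RPKM in WT to 1.60 RPKM in G93A. The defining genes Mrc1, Cd163 and Lyve1 stayed within 1.5-fold with vehicle, where Mrc1 was at 0.259 RPKM in WT and 0.276 RPKM in G93A. With SD, Mrc1 was at 0.105 RPKM in WT and 0.466 RPKM in G93A and was called higher, while Cd163 and Lyve1 stayed within 1.5-fold. Cd163 was at 0.238 RPKM in WT + SD and 0.355 RPKM in G93A + SD. Between SD and vehicle in G93A, 5 of the 10 genes were called higher with SD and 0 lower, beside 8.71% and 7.31% of all names.

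Monocyte and neutrophil genes were low, and their summed level of 6.06, 6.05, 17.8 and 27.2 RPKM was mostly Fn1, a matrix gene that other cells make too. With vehicle 7 of 10 were higher in G93A and 1 lower, Ly6c2, and with SD 3 were higher and 3 lower. Between SD and vehicle in G93A, 2 of the 10 were called higher and 7 lower, with a median of -0.45. In the same comparison 6 of 10 T cell genes were called higher and 0 lower, with a median of 0.29. Of all names, 8.71% were called higher and 7.31% lower. Apart from Fn1, S100a8, S100a9 and Il7r, the called genes had at most 0.165 RPKM in the G93A libraries. Most of these calls thus lie near 0 and are not read as a difference between cell types. Ly6c2 and Ccr2, which define inflammatory monocytes, reached at most 0.135 RPKM. Of the T cell genes 7 of 10 were higher with vehicle and 7 of 10 with SD, with medians of 0.23 and 0.36, and Cd3d, Cd3e and Cd3g reached at most 0.165 RPKM. B cell genes were split, with 3 of 6 higher and 2 lower with vehicle. Of 4 mast cell genes, 3 were higher with vehicle, and Cpa3 and Tpsb2 reached at most 0.0168 RPKM.

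Other lists differed between genotypes too. Interferon-stimulated genes were higher in 6 of 14 cases with vehicle and 13 of 14 with SD, with medians of 0.53 and 1.28, and in WT mice 8 of the 14 were lower with SD. Astrocyte genes were higher in 5 of 8 cases with vehicle, oligodendrocyte genes in 1 of 8, and neuron genes were lower in 4 of 7. The cords in the G93A libraries therefore differed in several cell type marks at the same time as in the Ms4a genes, and the part of each in the Ms4a values was not tested.

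**Figure D4:**
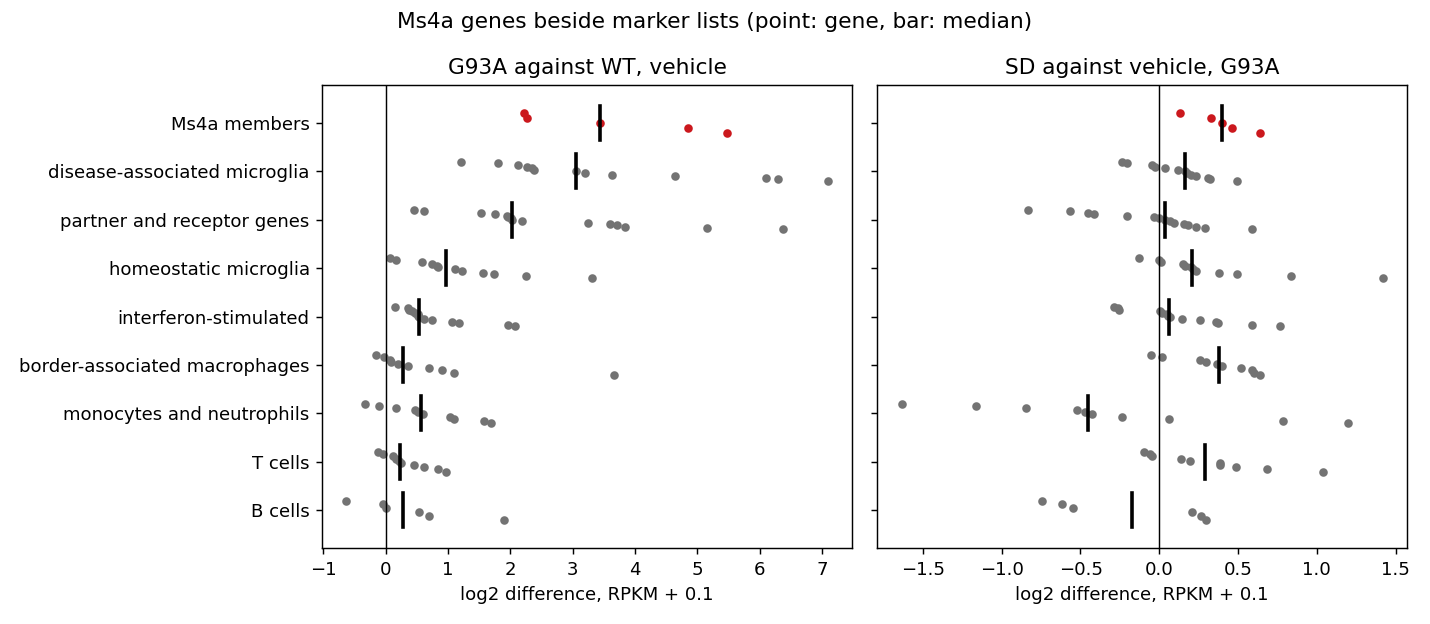
Differences of log2(RPKM + 0.1) for the Ms4a members and 8 gene lists, with G93A against WT under vehicle on the left and SD against vehicle in G93A on the right. Each point is a gene and each bar the median of its list. With vehicle the Ms4a median is 3.44 and that of disease-associated microglia 3.05, while in the SD comparison the medians are 0.40 and 0.16.

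The genes whose pattern over the 4 libraries was most like the family were found by centring log2(RPKM + 0.1) of each gene and taking the root mean square distance from the median profile of the members. This median profile was the same as that of Ms4a6d, so the measure ranks likeness to that gene. Among 12984 candidates, the 5 nearest were Niacr1 with a distance of 0.06, Osmr with 0.09, S1pr3 with 0.09, Fam101a with 0.09 and Hpgd with 0.10 on the log2 scale. Niacr1, a receptor for niacin and ketone bodies, had 0.138 RPKM in WT vehicle, 0.141 RPKM in WT + SD, 2.60 RPKM in G93A vehicle and 3.43 RPKM in G93A + SD. Hpgd, which breaks down prostaglandins, was much more abundant with 7.90, 7.76, 74.4 and 100.3 RPKM in the same order. The distances of the other members from the median profile were larger, 0.76 for Ms4a4c, 0.82 for Ms4a6c, 0.83 for Ms4a6b and 0.94 for Ms4a7.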

How the data were processed

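Lumbar spinal cord RNA was measured in 4 libraries, 1 per condition, and samples were grouped by their labels. The authors deposited 1 table of the series, and its 4 per-sample columns were all used, leaving 0 such columns unused. The values the authors deposited were read as RPKM. The sources used here do not name the unit, and it was judged from the numbers themselves. The methods describe STAR with GRCm38 and HTSeq with an Ensembl gene set, while the rows are RefSeq transcripts, and the step between is not stated. Ratio columns of the authors' own comparisons were not used.

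The members and gene lists were chosen with earlier results of these data known. Rows were averaged per name, and a name was called changed at 1.5-fold without a pseudocount, which also calls a name that is at 0 in only 1 of the 2 libraries. Log2 values have a pseudocount of 0.1 RPKM. No test was run, since each condition has 1 library. Named are the members, other Ms4a genes, list genes set beside them, the nearest neighbours of the cluster and the 5 genes most like the family among names with a mean of at least 1 RPKM.

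Read depth was estimated from the spacing of low values of short transcripts, where 70.8% to 89.3% of values per library were whole multiples within 0.1 of a step. It came to about 36800000 and 38300000 read pairs for the WT libraries (vehicle, SD) and 38000000 and 38600000 for the G93A libraries. A pair was taken as 2 reads of 108 aligned bases, since the low values of long transcripts lay most often at that sum, but the methods give reads of 53 bases. If 108 bases were a whole pair, the depth and all estimated pair counts would be 2 times as high. No interval was made from them. The H3K4me2 data were not analysed here. As alternatives, a pseudocount of 1 or 0.1 RPKM was used for the call, low names were removed (mean under 1 RPKM), and median-ratio scaling, the highest row per name, a 2-fold threshold, names above 0 in both libraries, and the other WT library for comparison were tried. The scripts ran on pandas 2.3.3 and numpy 2.4.6 under Python 3.11.15, with matplotlib 3.10.9 for the plots. The calls were tested on simulated data, where 200 of 200 changed genes were recovered. Only names with a mean above that of every member were simulated, so calls at the low levels of the members were not checked.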

Additional observations from a re-analysis of the deposited data

Results flagged for a closer look

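The SD comparison was read in the 12 measured genes of the cluster and in Tmem176a and Tmem176b. For 4 of these genes, the SD library differed from the vehicle library in opposite directions in the WT and the G93A mice. The SD difference in G93A minus that in WT, on the scale of log2(RPKM + 0.1), was 0.71 for Ms4a6c, 0.54 for Ms4a4d, 0.33 for Tmem176b and 0.26 for Tmem176a. Each gene was lower with SD in WT and higher with SD in G93A. The pattern is not particular to them, and Mrc1, Pf4, Olfml3, Apoe and Cxcl10 from the gene lists, named after their values were seen, had it too. Of all 18674 names, 9546 were higher with SD by some amount in WT and 9589 in G93A. How many names had opposite directions was not counted, so the 4 genes cannot be called unusual. Among the 4, only Ms4a6c in WT and Ms4a4d in G93A passed 1.5-fold, so no gene was called in both genotypes, and Tmem176a and Tmem176b were called in neither. With 1 library per condition the difference was not tested. The WT levels of Ms4a6c and Ms4a4d reached at most 0.138 RPKM, while the lowest WT value of Tmem176a and Tmem176b was 10.4 RPKM.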

How the results depend on the processing

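With only names of a mean of at least 1 RPKM, 3 members were called higher in G93A with vehicle and 3 with SD in place of 5 each, because Ms4a4c and Ms4a6b are then not tested. That filter left 1 member higher with SD in WT in place of 3, and 0 higher with SD in G93A in place of 1. With a pseudocount of 1 RPKM for the call, 0 members were higher and 0 lower with SD in WT, in place of 3 and 1, and 0 were higher with SD in G93A. With a pseudocount of 0.1 RPKM, and with a 2-fold threshold, 0 were lower with SD in WT, and the 2-fold threshold left 0 higher with SD in G93A. The cause was not tested beyond these settings. The other 80 values of counts and medians stayed within 1.5 times or on the same side. This is a loose rule. The median SD difference in WT counts as the same although it fell from 0.39 to 0.06 with a pseudocount of 1 RPKM. For single members, 95 values of called differences kept the call and 11 lost it. The 34 values of differences that were not called stayed so, and 0 of all these values changed direction. A pseudocount, a higher threshold or leaving out names at 0 cannot reverse a direction or add a call, so these settings could not show otherwise. Ms4a4c in G93A against WT with vehicle lost its call with a pseudocount of 1 RPKM, at a log2 difference of 0.47. No paired analysis was possible because each condition has 1 library and the labels give no replicate numbers. Depth limits the WT values of Ms4a7 and Ms4a4c most, which stand on few estimated read pairs.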
